A study of Mus musculus with 26 samples.

Results

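Expression was described for the genes of the integrin and laminin chains in the mouse mammary gland. Members were the probe sets of an Affymetrix mouse genome array annotated with 1 gene symbol that names an integrin alpha or beta chain or a laminin alpha, beta or gamma chain. These were 73 of 45101 probe sets, for 34 of 18193 genes, 24 of them integrin and 10 laminin chains. The brightest probe set of each gene, by its mean over the 26 arrays, stands for the gene. The inguinal gland was sampled on day 9 of lactation from mice of an Advanced Intercross Line (AIL, generation 14) with the sample code AQ (5 arrays) or AC (5 arrays), from QSi5 mice (3 arrays) and from CBA/CaH mice (3 arrays). It was also sampled on day 12 of pregnancy from QSi5 mice (5 arrays) and from CBA/CaH mice (5 arrays). The labels name a mouse for each array and no genetic change or treatment, and they do not give ages or say what AQ and AC stand for. Precision is limited by the number of arrays, and p-values measure the spread between these arrays.

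Laminins are trimers of an alpha, a beta and a gamma chain that form the base of the basement membrane, on which the secretory alveoli and ducts of the mammary gland rest. Integrins are pairs of an alpha and a beta chain in the cell membrane. They bind laminins, collagens or proteins with an arginine-glycine-aspartate (RGD) motif outside the cell and link them to actin or keratin filaments inside it. In the mouse, contact of luminal cells with laminin through integrins that hold the beta1 chain is known to be needed for full alveolar growth and for milk protein expression.

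Promoter sequence was used for 22 of the 34 members, in 25 windows of 250 bases that end just before a transcription start (RefSeq, build GRCm38.p6). A chromosome was left out of the choice of member windows, and not out of the 32851 windows named below. The 6 windows below belong to the 4 chains that were lowest at lactation relative to pregnancy in QSi5 among those with a sequence (Itgb8, Lamb3, Lamb2 and Itgb1), to the one that rose most (Itga8) and to Lama5, a laminin chain that rose. They run 5′ to 3′ along the gene. Itgb8 lies on the minus strand at chr12:119238277-119238526, Lamb3 (first of its start sites) on the plus strand at chr1:193301744-193301993, Lamb2 on the plus strand at chr9:108479612-108479861, Itgb1 on the plus strand at chr8:128685404-128685653, Itga8 on the minus strand at chr2:12301945-12302194 and Lama5 on the minus strand at chr2:180225860-180226109. Capitals mark matches to any of the 4 motifs searched on both strands: the GC box GGGCGG, the AP-1 site TGANTCA, the STAT site TTCNNNGAA and the TATA box TATAAA.
Itgb8: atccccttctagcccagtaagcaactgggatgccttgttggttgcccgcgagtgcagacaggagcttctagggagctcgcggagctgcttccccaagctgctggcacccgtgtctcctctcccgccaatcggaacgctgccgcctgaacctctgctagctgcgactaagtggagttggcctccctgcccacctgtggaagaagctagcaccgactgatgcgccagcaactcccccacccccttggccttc
Lamb3: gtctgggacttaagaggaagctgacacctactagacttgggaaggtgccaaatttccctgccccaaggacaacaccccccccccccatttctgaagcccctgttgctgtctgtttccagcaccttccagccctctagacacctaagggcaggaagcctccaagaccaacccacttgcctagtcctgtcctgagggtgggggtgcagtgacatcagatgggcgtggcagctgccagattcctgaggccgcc
Lamb2: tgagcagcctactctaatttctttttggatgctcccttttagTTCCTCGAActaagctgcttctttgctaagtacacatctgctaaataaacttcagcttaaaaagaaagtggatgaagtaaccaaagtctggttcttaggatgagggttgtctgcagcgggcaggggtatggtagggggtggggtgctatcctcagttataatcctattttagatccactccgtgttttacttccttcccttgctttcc
Itgb1: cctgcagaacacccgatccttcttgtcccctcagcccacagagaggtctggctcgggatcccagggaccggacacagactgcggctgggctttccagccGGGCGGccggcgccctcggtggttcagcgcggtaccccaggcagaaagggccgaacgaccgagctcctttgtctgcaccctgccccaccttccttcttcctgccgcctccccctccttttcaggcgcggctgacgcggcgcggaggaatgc
Itga8: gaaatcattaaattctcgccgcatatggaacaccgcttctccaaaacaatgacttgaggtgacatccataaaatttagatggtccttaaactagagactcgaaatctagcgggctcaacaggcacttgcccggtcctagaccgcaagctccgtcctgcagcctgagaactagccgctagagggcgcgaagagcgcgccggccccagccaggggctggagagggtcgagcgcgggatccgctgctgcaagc
Lama5: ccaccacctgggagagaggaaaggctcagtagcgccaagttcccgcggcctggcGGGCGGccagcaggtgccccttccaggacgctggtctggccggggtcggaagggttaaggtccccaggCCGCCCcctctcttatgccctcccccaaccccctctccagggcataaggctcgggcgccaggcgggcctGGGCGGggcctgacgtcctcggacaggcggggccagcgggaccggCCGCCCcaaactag
The windows of Itgb8, Lamb3 and Itga8 hold none of these letters, that of Lamb2 holds 1 STAT match, that of Itgb1 holds 1 GC box and that of Lama5 holds 4 GC boxes. Over the 25 windows, 9 hold a GC box, 1 an AP-1 site, 2 a STAT site and 0 a TATA box. Among 32851 promoter windows of the same length, the shares are 32.7%, 6.75%, 7.02% and 12.4%. No match overlapped a match to another motif. The other STAT match lies before Itga10 and the AP-1 match before Itgax. A match is a description of the letters and does not show binding.

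On the deposited log2 scale the array medians lay between 5.00 and 5.30. A difference of 1 is a doubling. Setting all array medians equal moved every stage difference below by -0.22 in QSi5 and -0.17 in CBA/CaH, and every difference between AIL and a parental strain by 0.11 (QSi5) or 0.09 (CBA/CaH). By muscle, brown fat or B and plasma cell markers, or by the Gapdh 3' minus 5' value, 7 arrays were atypical of their group. They were AC array 1 and pregnant QSi5 arrays 3 and 5 (muscle), and lactating QSi5 array 2 (B and plasma cells). The others were pregnant CBA/CaH arrays 3 and 5 (brown fat) and pregnant QSi5 array 4, with a Gapdh value of 6.50. For some of the results that depend on the 7 arrays, values without 1 or all of them are also given. The mammary epithelial keratins Krt8, Krt18, Krt5 and Krt14 had mean levels of 11.1, 10.9, 8.56 and 8.05 over all arrays. A level of 1 probe set is compared only with the same probe set on other arrays, since probe sets differ in how brightly they report a given amount of RNA.

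The first comparison was between day 9 of lactation and day 12 of pregnancy within each strain. Several laminin and integrin chains were far lower at lactation: Itgb8, Lamc1, Lamb3, Lamb2 and Itgb1 fell by more than 1 log2 unit in both strains. Lama2 did so as well, though both its calls were lost with cyclic loess and with quantile normalization. A smaller set was higher, led by Itga8 and Itga5, with Lama5 the only higher laminin alpha chain. In QSi5, 10 members were lower and 8 higher at an adjusted p under 0.05 (limma), and 32.7% and 33.0% of all genes were lower and higher. In CBA/CaH, 11 members were lower and 7 higher, beside 29.5% and 30.4% of all genes. The members' share called was 52.9% in each strain, below the 65.7% of all genes in QSi5 and the 60.0% in CBA/CaH.

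The laminin genes lay lower than the integrin genes on the whole, which is given as a description without a test. The median difference of the 10 laminin genes was -0.81 in QSi5 and -0.93 in CBA/CaH, that of the 24 integrin genes was -0.02 and -0.13, and that of all genes was 0.04 and 0.05. In both strains 8 members were lower, 6 were higher and 12 were not called; the other 8 were called in 1 strain. Stage groups did not overlap for 8 lower and 7 higher members in QSi5, beside 28.2% and 29.1% of all genes. In CBA/CaH they did not overlap for 11 lower and 6 higher members, beside 29.5% and 29.0%. Members lower by at least 1 log2 unit numbered 7 in each strain, which is near the background of 21.2% of all genes in QSi5 and 18.5% in CBA/CaH. Members higher by as much numbered 2 in QSi5 and 3 in CBA/CaH, beside 7.61% and 5.24% of all genes.

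**Figure D1:**
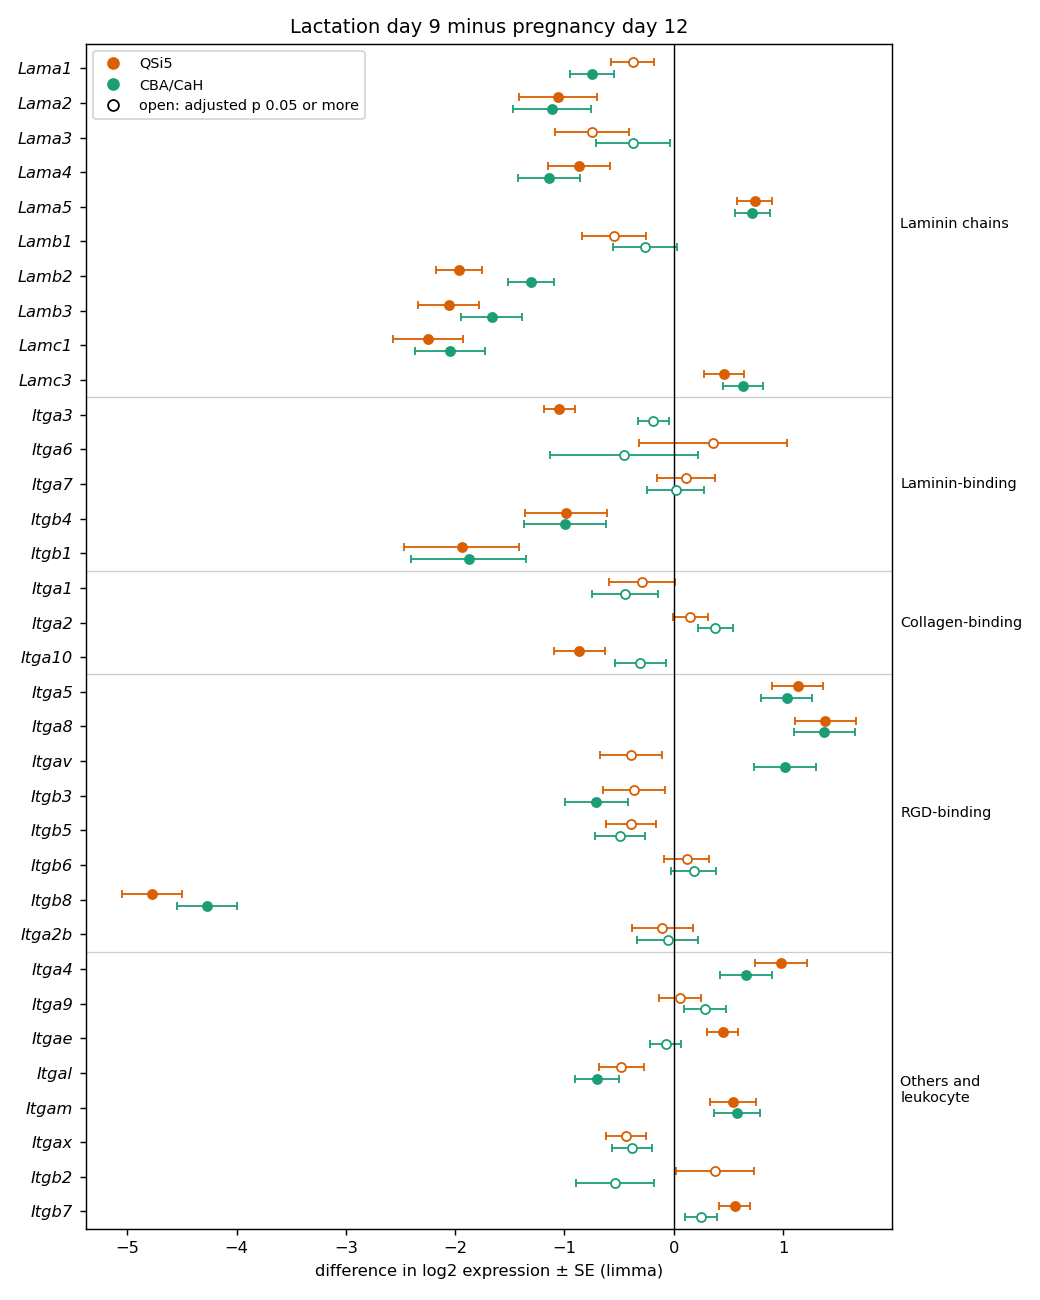
Difference in log2 expression between lactation day 9 and pregnancy day 12 for the 34 chains, with the standard error from limma, in QSi5 and CBA/CaH. Filled points passed an adjusted p of 0.05. Itgb8 lies at -4.77 and -4.27, far to the left of the other chains, and Itga8 and Itga5 lie furthest to the right in QSi5.

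Among the laminin chains, Lamc1 (probe set 1423885_at) was lower by the most. It encodes gamma1, the gamma chain shared by most laminins. Lamc1 stood at 6.89, 6.76 and 6.82 in lactating QSi5, against 9.25, 9.24, 9.39, 7.84 and 9.63 in pregnant QSi5. It stood at 6.82, 6.56 and 6.52 in lactating CBA/CaH, against 8.89, 8.07, 8.85, 9.16 and 8.41 in pregnant CBA/CaH. All lactation arrays lay below all pregnancy arrays of their strain, and the lowest pregnant QSi5 value was that of array 4. The differences were -2.25 (SE 0.32, adjusted p = 3.55e-05) in QSi5 and -2.04 (SE 0.32, adjusted p = 0.000113) in CBA/CaH. A second, dimmer probe set of Lamc1 went the other way, with 0.65 (SE 0.17, adjusted p = 0.00387) and 0.81 (SE 0.17, adjusted p = 0.00102). The mean over both probe sets was still lower, at -0.80 and -0.61.

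Lamb3 (1417812_a_at) encodes beta3, a chain known from the laminin of hemidesmosomes, which anchors basal epithelial cells. Its values were 6.74, 6.69 and 6.57 in lactating QSi5, against 9.21, 8.54, 8.99, 7.91 and 8.98 in pregnant QSi5. In CBA/CaH they were 7.77, 6.85 and 7.44 at lactation, against 8.99, 9.21, 8.92, 9.49 and 8.49 at pregnancy. The stages did not overlap in either strain, and the differences were -2.06 (SE 0.28, adjusted p = 2.23e-05) and -1.67 (SE 0.28, adjusted p = 0.000194). Cyclic loess over the arrays reduced them to -1.32 and -1.03, and quantile normalization reduced that in CBA/CaH to -1.06, all still called. Lama3, the alpha partner of beta3, was 6.60, 5.46 and 6.20 in lactating QSi5, against 7.46, 6.79, 6.90, 5.69 and 7.32 in pregnant QSi5, and 6.59, 6.36 and 5.84 in lactating CBA/CaH, against 6.54, 6.57, 6.59, 7.07 and 6.41 in pregnant CBA/CaH. The stages overlapped, and neither difference passed the test, at -0.75 (SE 0.34, adjusted p = 0.069) and -0.37 (SE 0.34, adjusted p = 0.365). Without pregnant QSi5 array 4, where Lama3 was at its group's lowest, its QSi5 difference was -1.03 (adjusted p = 0.00287).

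Lamb2 (1416513_at) encodes beta2, a chain known from basement membranes of kidney, vessels and the nerve-muscle junction. It stood at 5.31, 4.65 and 5.35 in lactating QSi5, against 7.11, 7.25, 7.11, 6.58 and 7.30 in pregnant QSi5. It stood at 5.36, 5.66 and 5.41 in lactating CBA/CaH, against 6.79, 6.46, 6.51, 7.25 and 6.88 in pregnant CBA/CaH. No arrays overlapped between the stages, with differences of -1.97 (SE 0.21, adjusted p = 2.51e-06) and -1.30 (SE 0.21, adjusted p = 0.000146). Lamb1 encodes the more widespread beta1 chain. It was 9.78, 9.45 and 9.73 in lactating QSi5, against 9.95, 9.98, 10.20, 10.93 and 9.93 in pregnant QSi5, and 8.81, 9.63 and 9.74 in lactating CBA/CaH, against 9.50, 9.01, 9.49, 10.34 and 9.95 in pregnant CBA/CaH. All QSi5 lactation arrays lay below the pregnancy arrays, but Lamb1 did not pass in either strain, at -0.54 (SE 0.29, adjusted p = 0.122) and -0.26 (SE 0.29, adjusted p = 0.463), and cyclic loess turned these to 0.29 and 0.48, not called. A second Lamb1 probe set was lower in QSi5, at -0.91 (SE 0.35, adjusted p = 0.0346), and another, dim one was higher, at 0.47 (SE 0.17, adjusted p = 0.025).

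The alpha chains divided. Lama2 (1426285_at) encodes alpha2, the chain of muscle and nerve laminin. Lama2 was 6.998, 6.71 and 6.90 in lactating QSi5, against 7.87, 7.27, 8.45, 8.71 and 7.35 in pregnant QSi5. It was 6.50, 6.41 and 6.71 in lactating CBA/CaH, against 7.40, 7.10, 7.59, 8.81 and 7.36 in pregnant CBA/CaH. Lactation lay below pregnancy without overlap, at -1.06 (SE 0.36, adjusted p = 0.0194) and -1.11 (SE 0.36, adjusted p = 0.0169). Both calls were lost with cyclic loess and with quantile normalization, the second at -0.50 (adjusted p = 0.267) and -0.73 (adjusted p = 0.11). In QSi5 the call was also lost without lactation array 2 (-0.98, adjusted p = 0.0667) and once the 7 atypical arrays were dropped (-0.62, adjusted p = 0.256), and in CBA/CaH without lactation array 2 (-1.04, adjusted p = 0.059).

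Lama4 (1424807_at) encodes alpha4, the chain of vessel walls and mesenchymal tissue. Its values were 6.46, 6.29 and 6.31 in lactating QSi5, against 7.03, 6.70, 7.32, 7.60 and 7.46 in pregnant QSi5, and the stages did not overlap. In CBA/CaH they were 5.93, 6.39 and 6.36 at lactation, against 7.14, 6.48, 7.67, 8.08 and 7.47 at pregnancy, again without overlap. Lama4 was lower, at -0.87 (SE 0.28, adjusted p = 0.0155) and -1.14 (SE 0.28, adjusted p = 0.00348). A dim second probe set rose by 0.52 and 0.64, and the mean of both was not called, at -0.17 and -0.25. The QSi5 call was lost with quantile normalization (-0.53, adjusted p = 0.125), with cyclic loess (-0.50, adjusted p = 0.186) and once the 7 atypical arrays were dropped (-0.48, adjusted p = 0.327).

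Lama5 (1427009_at) went the other way. It encodes alpha5, the main alpha chain under many adult epithelia. Lama5 was 8.82, 8.63 and 9.20 in lactating QSi5, against 8.19, 8.23, 8.01, 7.77 and 8.48 in pregnant QSi5. It was 8.79, 8.95 and 8.85 in lactating CBA/CaH, against 8.11, 8.20, 8.17, 7.94 and 8.30 in pregnant CBA/CaH. All lactation arrays lay above all pregnancy arrays of their strain, by 0.74 (SE 0.16, adjusted p = 0.00101) and 0.72 (SE 0.16, adjusted p = 0.00161). With cyclic loess the differences were 1.52 and 1.39, with quantile normalization 1.48 and 1.35, and with the mean of all probe sets 0.42 and 0.43, all called. A dim probe set also rose (0.55 and 0.71) while another gave -0.05 and -0.13, which were not called.

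Lama1, the alpha1 chain of embryonic and glandular basement membranes, was called in CBA/CaH alone. It stood at 6.58, 7.01 and 7.22 in lactating CBA/CaH, against 7.70, 7.70, 7.37, 8.08 and 7.56 in pregnant CBA/CaH, a difference of -0.75 (SE 0.20, adjusted p = 0.00561) without overlap that was not called with quantile normalization (-0.24, adjusted p = 0.26) or cyclic loess (-0.23, adjusted p = 0.274). In QSi5 it was -0.38 (SE 0.20, adjusted p = 0.115), 0.33 with quantile normalization and -0.50 (adjusted p = 0.0247) without pregnancy array 4, and the difference between the strains was not called (0.37, adjusted p = 0.996). Lamc3 encodes the minor gamma3 chain. It was 5.62, 5.79 and 5.67 in lactating QSi5, against 5.12, 5.08, 5.10, 5.68 and 5.16 in pregnant QSi5, and 5.48, 5.81 and 5.47 in lactating CBA/CaH, against 4.78, 4.50, 5.03, 5.35 and 5.12 in pregnant CBA/CaH. It was higher by 0.46 (SE 0.18, adjusted p = 0.0406), with pregnancy array 4 inside the lactation range, and by 0.63 (SE 0.18, adjusted p = 0.00947) without overlap. Its QSi5 call was lost in 12 of 19 alternatives, and the mean of its 2 probe sets was -0.04 in QSi5 and 0.08 in CBA/CaH. The laminin genes were thus not uniform in direction: in QSi5 5 were lower and 2 higher, and in CBA/CaH 6 were lower and 2 higher.

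**Figure D2:**
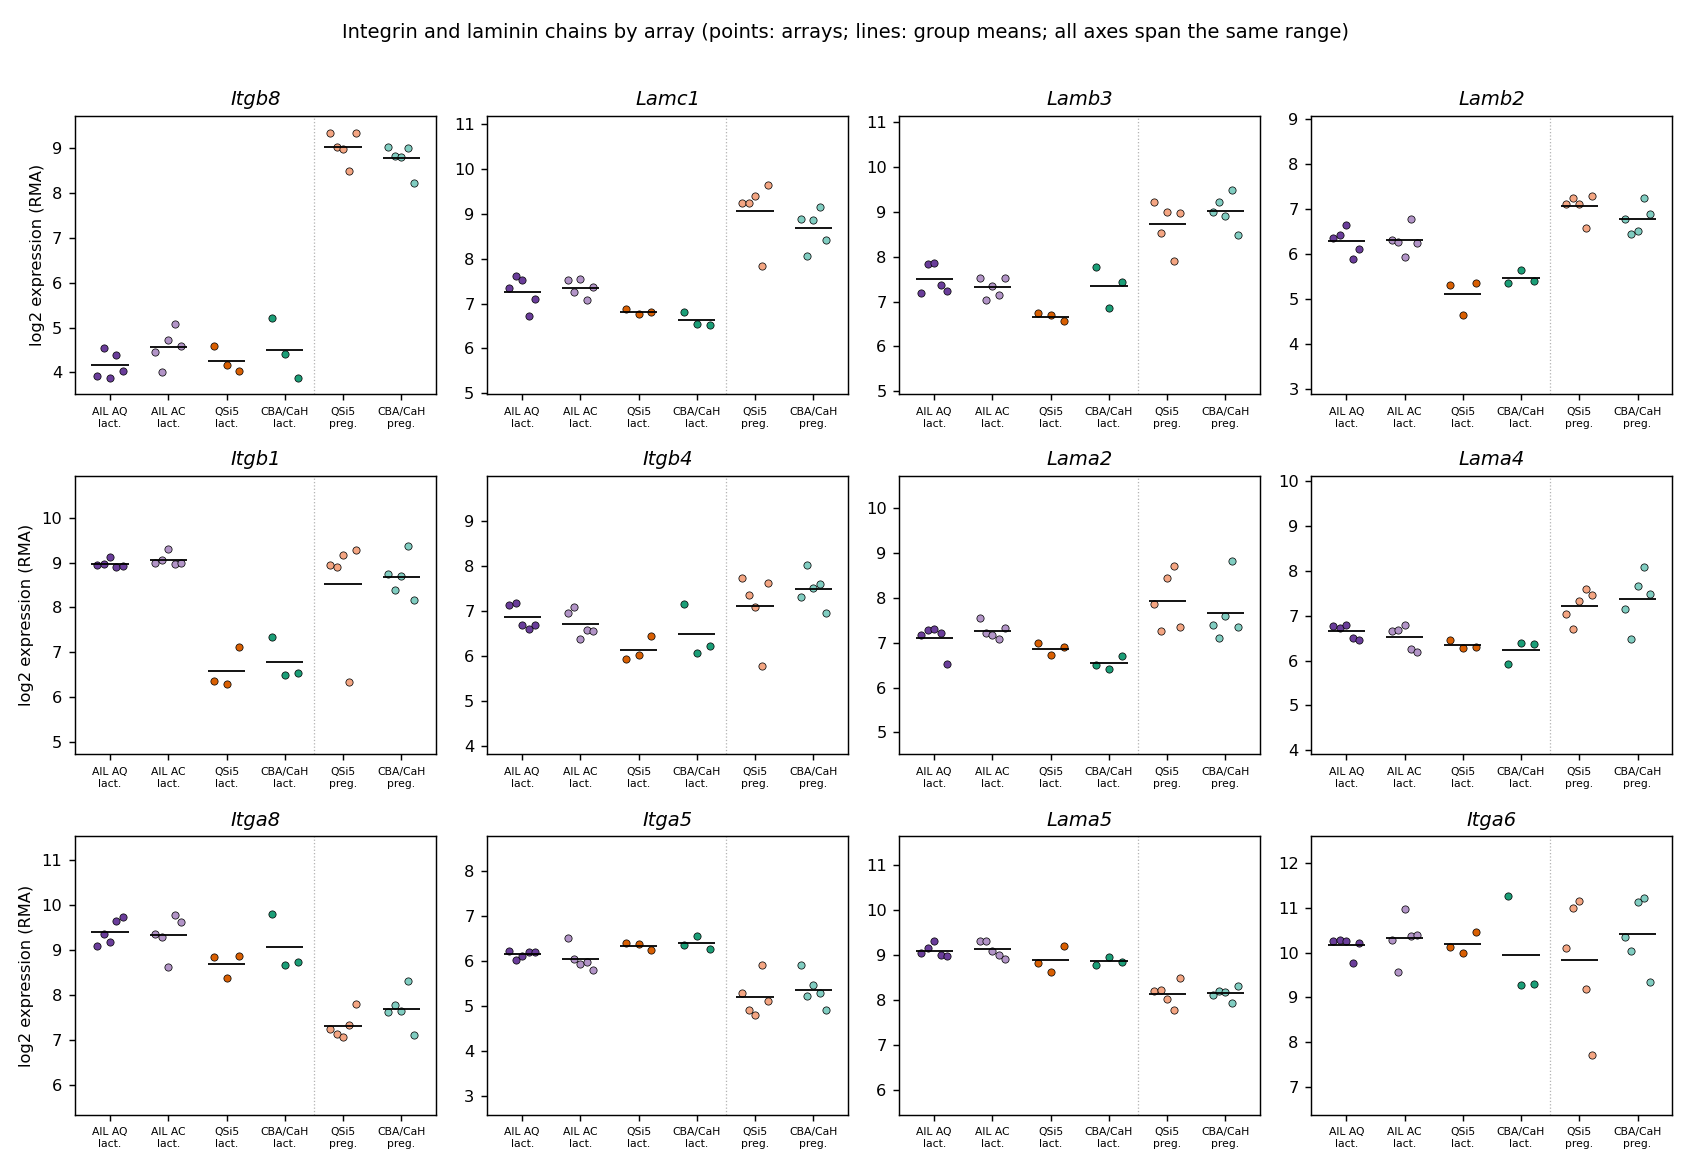
Log2 expression on each array for 12 chains in the 6 groups, with group means as lines. Each panel spans the same range of log2 units. Itgb8, Lamc1 and Lamb3 are lower on all lactation arrays than on all pregnancy arrays. Lamb2 is lower in lactating QSi5 and CBA/CaH, while its AIL arrays overlap with the pregnancy arrays. Itgb1 is low in lactating QSi5 and CBA/CaH and on pregnant QSi5 array 4, and not in the AIL.

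Itgb1 (1452545_a_at) leads the laminin-binding integrins, as its beta1 chain pairs with the alpha chains of most laminin and collagen receptors. Itgb1 was 6.37, 6.28 and 7.12 in lactating QSi5, against 8.95, 8.91, 9.17, 6.34 and 9.29 in pregnant QSi5. It was 7.34, 6.50 and 6.54 in lactating CBA/CaH, against 8.75, 8.38, 8.70, 9.36 and 8.16 in pregnant CBA/CaH. The stages overlapped in QSi5 through pregnancy array 4 alone, and not in CBA/CaH. The differences were -1.94 (SE 0.52, adjusted p = 0.0052) and -1.88 (SE 0.52, adjusted p = 0.00751), and without pregnant array 4 the QSi5 difference was -2.49 (adjusted p = 3.48e-06). Of 5 other Itgb1 probe sets, 2 were lower in both strains, among them one at -2.32 and -1.54, 2 were called in neither and a dim one was higher, at 0.72 and 0.34. The mean over all 6 was -0.75 and -0.65, and cyclic loess gave -1.26 in QSi5, all called.

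Itgb4 (1427387_a_at) encodes beta4, the partner of alpha6 in hemidesmosomes. Its values were 5.92, 6.01 and 6.45 in lactating QSi5, against 7.73, 7.36, 7.09, 5.78 and 7.61 in pregnant QSi5. There pregnancy array 4, with the Gapdh value of 6.50, lay below all lactation arrays. The other pregnancy arrays of QSi5 all lay above the lactation arrays. In CBA/CaH the Itgb4 values were 7.15, 6.07 and 6.23 at lactation, against 7.31, 8.02, 7.51, 7.59 and 6.95 at pregnancy, with lactation array 1 inside the pregnancy range. Itgb4 was lower, at -0.99 (SE 0.38, adjusted p = 0.0333) and -0.997 (SE 0.38, adjusted p = 0.0358). Of 19 alternatives each, 8 in QSi5 and 7 in CBA/CaH lost the call, quantile normalization (-0.69, adjusted p = 0.113, and -0.66, adjusted p = 0.136) and cyclic loess among them. Leaving out any of pregnancy arrays 1, 2 and 5 or lactation arrays 1 and 2 in QSi5 ended the call (adjusted p from 0.0627 to 0.109), as did leaving out any of pregnancy arrays 2, 3 and 4 or lactation arrays 2 and 3 in CBA/CaH (0.054 to 0.15).

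Itga6, the alpha6 chain, varied widely between arrays and was called in neither strain. It was 10.12, 9.98 and 10.46 in lactating QSi5, against 10.11, 10.98, 11.16, 9.19 and 7.71 in pregnant QSi5. In CBA/CaH it was 11.27, 9.29 and 9.31 at lactation, against 10.35, 10.03, 11.12, 11.22 and 9.34 at pregnancy. The differences were 0.36 (SE 0.68, adjusted p = 0.663) and -0.46 (SE 0.68, adjusted p = 0.585), with standard errors larger than those of any other member in these comparisons. Itga3, whose alpha3 chain binds the laminins of hemidesmosomes and of alpha5 type, was called lower in QSi5. It stood at 6.53, 6.60 and 6.82 in lactating QSi5, against 7.64, 7.78, 7.58, 7.75 and 7.74 in pregnant QSi5, with no overlap and a difference of -1.05 (SE 0.14, adjusted p = 2.27e-05). In CBA/CaH it was 7.57, 7.10 and 6.87 at lactation, against 7.47, 7.29, 7.30, 7.25 and 7.52 at pregnancy, a difference of -0.19 (SE 0.14, adjusted p = 0.279). Without lactating CBA/CaH array 1 it was called there too, at -0.38 (adjusted p = 0.0288), whereas quantile normalization turned it to 0.32 and cyclic loess to 0.24, neither called. Quantile normalization gave -0.55 in QSi5, cyclic loess -0.53 and the mean over its 3 probe sets -0.36, all still called. The stage differences of Itga3 in QSi5 and CBA/CaH differed by -0.86 (SE 0.20), which was not called among all probe sets (adjusted p = 0.216) but was called when all 26 arrays were fitted together (adjusted p = 0.0458). Itga7, an alpha chain of muscle, was not called in any comparison.

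Of the collagen-binding alpha chains, Itga10, known from cartilage, was lower in QSi5. It was 4.91, 4.55 and 4.80 in lactating QSi5, against 5.54, 5.997, 5.54, 4.79 and 6.21 in pregnant QSi5, where pregnancy array 4 lay inside the lactation range. The difference was -0.87 (SE 0.23, adjusted p = 0.00503) in QSi5 and -0.30 (SE 0.23, adjusted p = 0.278) in CBA/CaH, where the groups did not overlap but the call was not made. Itga1, which binds basement membrane collagen, was 6.84, 6.74 and 6.67 in lactating QSi5, against 6.82, 6.32, 7.31, 7.42 and 7.32 in pregnant QSi5, and 6.87, 6.48 and 6.73 in lactating CBA/CaH, against 6.91, 6.50, 6.97, 7.17 and 8.14 in pregnant CBA/CaH. Its differences were -0.29 (SE 0.30, adjusted p = 0.418) and -0.45 (SE 0.30, adjusted p = 0.217), with overlapping groups. Itga2, a receptor for fibrillar collagen, was 4.47, 4.48 and 4.75 in lactating QSi5, against 4.37, 4.47, 4.43, 4.23 and 4.60 in pregnant QSi5, and 5.02, 4.95 and 4.53 in lactating CBA/CaH, against 4.37, 4.18, 4.76, 4.72 and 4.23 in pregnant CBA/CaH. Its differences were 0.15 (SE 0.16, adjusted p = 0.435) and 0.38 (SE 0.16, adjusted p = 0.0578), also with overlapping groups. Neither passed the test, although Itga2 in CBA/CaH was called in 6 of 18 alternatives.

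Itgb8 (1436223_at) moved furthest of all members. It pairs with the alphav chain and is known for binding the latent form of TGF-beta. Itgb8 was 4.58, 4.17 and 4.03 in lactating QSi5, against 9.34, 9.01, 8.97, 8.50 and 9.34 in pregnant QSi5. It was 5.22, 4.40 and 3.88 in lactating CBA/CaH, against 9.02, 8.83, 8.80, 8.998 and 8.22 in pregnant CBA/CaH. The highest lactation array and the lowest pregnancy array stood at 4.58 and 8.50 in QSi5, and at 5.22 and 8.22 in CBA/CaH. The lactation means of 4.26 in QSi5 and 4.50 in CBA/CaH lay below the array medians and are not shown to be above background, so the estimated folds may be too small. The difference of -4.77 (SE 0.27, adjusted p = 5.58e-09) in QSi5 corresponds to an estimated level 27.3-fold lower, and that of -4.27 (SE 0.27, adjusted p = 2.77e-08) in CBA/CaH to one 19.3-fold lower. It was called in all 19 alternatives in each strain, from -4.99 to -4.29 in QSi5 and from -4.63 to -3.87 in CBA/CaH. In whole glands, fewer cells of a type and less RNA per cell cannot be told apart, here and for all other chains.

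Its partner chain moved otherwise. Itgav, the alpha chain of the vitronectin receptors, was 10.40, 10.97 and 11.05 in lactating CBA/CaH, against 10.04, 9.65, 9.49, 10.26 and 9.52 in pregnant CBA/CaH, higher at lactation without overlap by 1.02 (SE 0.28, adjusted p = 0.00703). Quantile normalization gave 1.56 and cyclic loess 1.74 there. In QSi5 it was 10.15, 9.32 and 10.81 at lactation, against 10.40, 10.24, 10.35, 10.93 and 10.51 at pregnancy, a difference of -0.39 (SE 0.28, adjusted p = 0.239) that was not called and has no settled direction. Quantile normalization gave 0.27 (adjusted p = 0.413) and cyclic loess 0.41 (adjusted p = 0.258) there, and without the atypical arrays it was 0.16. The difference between the strains in stage response, -1.41 (SE 0.40), was not called (adjusted p = 0.453). Of the 4 other Itgav probe sets, all dimmer, 3 were higher at lactation in both strains, at 0.79, 0.66 and 0.75 in QSi5, and the mean of all 5 in QSi5 was 0.36 (adjusted p = 0.0111). Without lactating QSi5 array 3 the brightest probe set was called lower, at -0.75 (adjusted p = 0.0315).

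Itga8 and Itga5 were higher at lactation in both strains. Itga8 (1454966_at) encodes alpha8, a partner of beta1 that binds nephronectin. It was 8.85, 8.37 and 8.86 in lactating QSi5, against 7.24, 7.13, 7.05, 7.33 and 7.79 in pregnant QSi5. It was 9.81, 8.66 and 8.73 in lactating CBA/CaH, against 7.63, 7.77, 7.64, 8.30 and 7.11 in pregnant CBA/CaH. No arrays overlapped, and Itga8 rose by 1.39 (SE 0.28, adjusted p = 0.000622) and 1.38 (SE 0.28, adjusted p = 0.000838). Its second probe set was not called between stages, at 0.04 (SE 0.23, adjusted p = 0.887) and 0.12 (SE 0.23, adjusted p = 0.675). The mean of both probe sets was 0.71 and 0.75, and cyclic loess gave 2.09 in QSi5, all called.

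Itga5 (1423268_at) encodes alpha5, the alpha chain of the main fibronectin receptor. It was 6.40, 6.38 and 6.24 in lactating QSi5, against 5.29, 4.91, 4.81, 5.91 and 5.11 in pregnant QSi5, and 6.36, 6.55 and 6.28 in lactating CBA/CaH, against 5.92, 5.23, 5.46, 5.30 and 4.91 in pregnant CBA/CaH. The groups did not overlap, and it rose by 1.13 (SE 0.23, adjusted p = 0.000693) and 1.03 (SE 0.23, adjusted p = 0.00175). Another Itga5 probe set of nearly the same mean level was lower in QSi5, at -0.58 (adjusted p = 0.0247), and the mean over all 4 was not called (0.16 and 0.25). The 2 brightest probe sets of Itga5 thus differ in direction in QSi5.

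Of the beta chains that pair with alphav, Itgb3 was called lower in CBA/CaH only, at -0.71 (SE 0.29, adjusted p = 0.0482) against -0.36 (SE 0.29, adjusted p = 0.283) in QSi5. Its values were 5.45, 5.29 and 4.81 in lactating CBA/CaH, against 6.16, 5.42, 5.89, 6.13 and 5.86 in pregnant CBA/CaH, with a slight overlap. The call was lost in 8 of 19 alternatives, 6 of which left out 1 of pregnancy arrays 1, 3, 4 and 5 or lactation arrays 2 and 3 (-0.76 to -0.52), and a second probe set rose by 0.61 (adjusted p = 0.0491). Itgb5 was not called (-0.39 and -0.49), although 1 of its 3 other probe sets was lower in both strains, at -0.98 (SE 0.23, adjusted p = 0.00239) and -1.03 (SE 0.23, adjusted p = 0.0021). In CBA/CaH the Itgb5 groups did not overlap, from 9.03 to 9.10 at lactation and from 9.44 to 9.66 at pregnancy. Pregnant QSi5 ran from 9.23 to 10.56, with the highest value on array 4. Itgb6, an epithelial beta chain, and Itga2b, the platelet alpha chain, did not pass in either strain.

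The integrins of blood cells were not uniform in direction. Itga4, which with beta1 or beta7 binds Vcam1 and Madcam1, was 5.96, 7.01 and 5.79 in lactating QSi5, against 5.38, 4.98, 5.60, 5.12 and 5.29 in pregnant QSi5. The highest of these, lactation array 2, is the array that was atypical by its B and plasma cell markers. The difference was 0.98 (SE 0.24, adjusted p = 0.00266), and 0.60 (adjusted p = 0.0203) without that array. In CBA/CaH it was 6.11, 5.68 and 6.03 at lactation, against 5.21, 5.19, 4.97, 5.67 and 5.35 at pregnancy. That difference of 0.66 (SE 0.24, adjusted p = 0.0296) was lost in 9 of 19 alternatives, 5 of them without 1 array (pregnancy arrays 1, 2 and 3, lactation arrays 1 and 3, adjusted p from 0.0519 to 0.104) and 3 of them other array scalings (adjusted p from 0.0715 to 0.221).

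In QSi5 the mucosal chains Itgb7 and Itgae, which form the receptor for E-cadherin, were higher by 0.56 (SE 0.14, adjusted p = 0.00394) and 0.45 (SE 0.14, adjusted p = 0.0138), and in CBA/CaH they gave 0.25 (SE 0.14, adjusted p = 0.156) and -0.07 (SE 0.14, adjusted p = 0.683). The Itgae call was lost without lactation array 2 (0.38, adjusted p = 0.0658) and with each other array scaling. The difference between the strains was not called for Itgae (0.52, adjusted p = 0.851) or Itgb7 (0.31, adjusted p = 0.996). Itgam, the alpha chain of the myeloid complement receptor, was higher at 0.54 (SE 0.21, adjusted p = 0.0343) and 0.58 (SE 0.21, adjusted p = 0.0283). Its lactation means of 4.37 in QSi5 and 4.44 in CBA/CaH lay below the array medians and are not shown to be above background. The CBA/CaH groups overlapped, and probe sets with a mean under 5 had median stage differences of 0.32 in QSi5 and 0.29 in CBA/CaH. Itgal, the alpha chain of the lymphocyte receptor for Icam1, was called lower in CBA/CaH at -0.70 (SE 0.20, adjusted p = 0.00965), but its second probe set rose there by 0.50 (adjusted p = 0.0112). Itgb2 and Itgax were called in neither strain. Apart from these chains of blood cells, Itga9 was not called in either strain.

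Markers of several cell types moved with the stage. Each value here is the median of a marker list on an array, relative to each marker's mean over all arrays. The median of 11 myoepithelial and basal markers ran from -1.46 to -0.46 in lactating QSi5, against 0.49 to 0.74 in pregnant QSi5, and from -0.65 to 0.04 in lactating CBA/CaH, against -0.04 to 1.09 in pregnant CBA/CaH. That of 11 endothelial markers ran from -0.84 to -0.72 against 0.41 to 1.28 in QSi5 and from -0.74 to -0.65 against -0.34 to 1.10 in CBA/CaH. Fibroblast markers (10) ran from -1.20 to -0.66 against 0.18 to 0.89 and from -1.24 to -1.03 against -0.47 to 1.97. Luminal markers (12) ran from -1.14 to -0.88 against 1.04 to 2.01 and from -1.02 to -0.42 against 0.98 to 1.28. Of all genes, 32.7% were called lower in QSi5 and 29.5% in CBA/CaH. In QSi5 9 of 11 myoepithelial and basal, 8 of 11 endothelial, 6 of 10 fibroblast and 10 of 12 luminal markers were lower, and in CBA/CaH 6, 8, 7 and 10 were. Their part in the differences of the chains was not tested.

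For the counts that follow, 33.0% of all genes were called higher in QSi5 and 30.4% in CBA/CaH, and 32.7% and 29.5% lower. Lymphocyte markers were mostly higher in QSi5, and their counts in CBA/CaH lay nearer to these shares. Of 10 B and plasma cell markers, 10 were higher in QSi5 and 4 in CBA/CaH, and of 12 T and NK cell markers 8 and 4 were higher. Median differences were 1.66 and 0.62 for the B and plasma cell list, and 0.79 and 0.13 for the T and NK cell list. Of 12 macrophage and dendritic cell markers, 1 was higher and 6 lower in QSi5, and 1 was higher and 7 lower in CBA/CaH. White adipocyte markers were lower for 3 of 9 in QSi5 and 8 of 9 in CBA/CaH, and platelet markers higher for 4 of 6 and 3 of 6. Brown adipocyte markers were higher for 3 of 7 in QSi5 and lower for 3 of 7 in CBA/CaH, where pregnancy arrays 3 and 5 were atypical by them. Of 14 skeletal muscle markers 1 was higher in each strain, and of 5 Schwann cell and nerve markers 2 were lower in each. Their part in the values of Itga4, Itgae, Itgb7, Itgal and Itgam was not tested.

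Each of 5 lists of genes that work with the chains had a median stage difference below 0 in both strains. For their counts, 32.7% of all genes were called lower in QSi5 and 29.5% in CBA/CaH. Of 21 measured cytoplasmic partners of integrins, 13 were lower and 1 higher in QSi5, and 12 lower and 1 higher in CBA/CaH. The list's median difference was -1.33 in QSi5 and -0.996 in CBA/CaH, beside 0.04 and 0.05 over all genes. Flna, the actin crosslinker filamin A, was lower, at -2.48 and -2.07 (SE 0.32), Parva, an adaptor of the integrin-linked kinase, was at -2.36 and -2.24 (SE 0.37), and Vcl, the talin-binding vinculin, was at -2.19 and -1.80 (SE 0.22). Rap1a, a GTPase that activates integrins, was not called at -0.32 and -0.32. The higher gene in both strains was Apbb1ip, which links Rap1 to talin in blood cells, at 0.87 and 0.75 (SE 0.18). It was named after its value was seen.

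Among 14 other basement membrane genes, 7 were lower and 2 higher in QSi5, and 6 lower and 3 higher in CBA/CaH. Col4a5 was lower, at -4.06 and -2.88 (SE 0.54), Nid1, which bridges laminin and collagen IV, was at -3.32 and -2.88 (SE 0.33), and the collagen IV chains Col4a1 at -3.26 and -2.77 (SE 0.26) and Col4a2 at -2.88 and -2.44 (SE 0.29). Hspg2, the heparan sulfate proteoglycan perlecan, was not called at 0.36 and 0.23. Of the 4 hemidesmosome partners, 3 were lower in QSi5 and 2 in CBA/CaH. Plec, which ties beta4 to keratin, was lower, at -0.94 and -0.66 (SE 0.19), and Cd151, a tetraspanin bound to laminin-binding integrins, was not called at -0.07 and 0.03. Median differences were -1.15 and -0.72 for the basement membrane genes and -0.72 and -0.59 for the hemidesmosome partners.

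Of 7 other laminin receptor genes, 3 were lower and 2 higher in QSi5, and 2 lower and 2 higher in CBA/CaH, with medians of -0.29 and -0.09. Dag1, which encodes dystroglycan, was lower, at -1.49 and -1.38 (SE 0.17), and Sgca, a muscle sarcoglycan, rose by 1.002 and 0.95 (SE 0.24). Of 18 integrin ligands other than laminins, 11 were lower and 3 higher in QSi5, and 9 lower and 3 higher in CBA/CaH, with medians of -1.05 and -0.94. Cdh1, the E-cadherin bound by Itgae, was lower, at -3.17 and -2.39 (SE 0.30), and Icam1, a ligand of the Itgb2 integrins, was at -2.57 and -2.57 (SE 0.30). The next 3 ligands were chosen after their values were seen, for the integrins they bind. Npnt, the nephronectin bound by alpha8, was lower, at -1.93 and -1.83 (SE 0.57) while Itga8 rose, and Tgfb1, whose latent form beta8 binds, was lower, at -0.90 and -1.13 (SE 0.25). Mfge8, a milk fat globule protein bound by alphav integrins, rose by 0.71 and 0.80 (SE 0.13).

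The strains were compared at each stage. No member was called between QSi5 and CBA/CaH at pregnancy (limma; 3 had an unadjusted p under 0.05, and 1.22% of all genes were called) or at lactation (4 with an unadjusted p under 0.05, and 0.346% of all genes called). The stage response did not differ between strains by this test for any member either (4 with an unadjusted p under 0.05, and 0.0989% of all genes called). The unadjusted counts of members have no background beside them, as the share of all genes at that threshold is not given here. Itga3 had an unadjusted p under 0.05 in all 3 comparisons. It was higher in QSi5 than in CBA/CaH at pregnancy by 0.33 (SE 0.12, adjusted p = 0.381), without overlap, and lower at lactation, at -0.53 (SE 0.16, adjusted p = 0.432), also without overlap. Itgav had the same pattern, at 0.69 (SE 0.24, adjusted p = 0.333) and -0.72 (SE 0.31, adjusted p = 0.893), with overlapping groups.

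The others with an unadjusted p under 0.05 were Itga9 at pregnancy (0.56 (SE 0.17, adjusted p = 0.197)), Lama1 and Lamb3 at lactation (0.71 (SE 0.22, adjusted p = 0.494) and -0.69 (SE 0.31, adjusted p = 0.935), both without overlap), and Lamb2 and Itgae in the stage response (-0.66 (SE 0.30, adjusted p = 0.917) and 0.52 (SE 0.20, adjusted p = 0.851)). With all 26 arrays in the fit, or with array weights, Itga9 was called higher in QSi5 at pregnancy. The groups did not overlap for 1 member at pregnancy, where 1.45% of all genes were higher and 0.852% lower without overlap, and for 7 at lactation, where 7.05% and 6.28% of all genes were higher or lower without overlap with 3 arrays a side.

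The AIL mice descend from QSi5 and CBA/CaH and were compared with each parental strain at lactation. Itgb1 stood out: it was higher in the AIL than in both strains by more than 2 log2 units, with no overlap. Lamb2 and Lamc1 were also higher than in both strains, and Itga10 lower. Against QSi5, 7 members were higher and 5 lower, beside 19.4% and 18.5% of all genes. Against CBA/CaH, 6 were higher and 1 lower, beside 18.0% and 16.2%. The median difference over the members was 0.09 against QSi5 and 0.07 against CBA/CaH, and -0.03 over all genes in each. The 2 comparisons share the AIL arrays, and their values are given side by side.

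**Figure D3:**
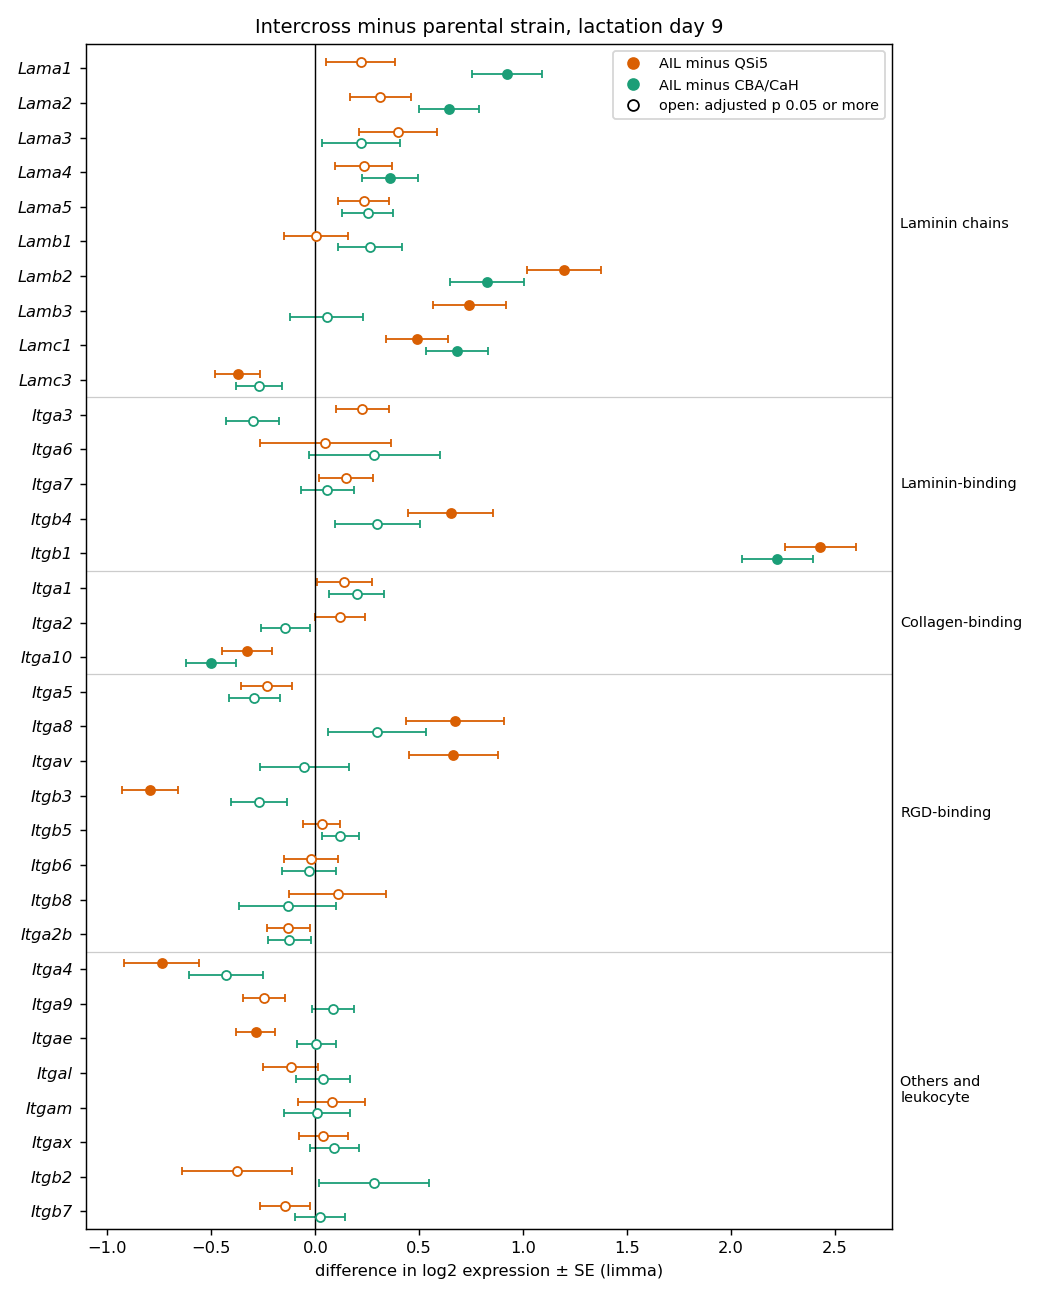
Difference in log2 expression between the AIL and each parental strain on day 9 of lactation for the 34 chains, with the standard error from limma. Filled points passed an adjusted p of 0.05. Itgb1 lies at 2.43 against QSi5 and 2.22 against CBA/CaH, to the right of all other chains.

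Itgb1 was 8.94, 8.98, 9.12, 8.89 and 8.92 in AIL mice coded AQ and 8.99, 9.06, 9.31, 8.98 and 8.98 in AIL mice coded AC, against 6.37, 6.28 and 7.12 in QSi5 and 7.34, 6.50 and 6.54 in CBA/CaH. The AIL arrays lay within the range of the pregnant parental mice, setting aside pregnant QSi5 array 4. The differences were 2.43 (SE 0.17, adjusted p = 1.87e-08) against QSi5 and 2.22 (SE 0.17, adjusted p = 5.19e-08) against CBA/CaH, and they were called in all 26 alternatives of each comparison. Of all genes, 3.05% were higher than QSi5 by at least 1 log2 unit and 2.85% were higher than CBA/CaH by as much. A second Itgb1 probe set gave 2.68 (SE 0.17, adjusted p = 7.77e-09) and 2.15 (SE 0.17, adjusted p = 9.96e-08), and another gave 0.96 (SE 0.12, adjusted p = 1.8e-05) and 1.03 (SE 0.12, adjusted p = 8.77e-06). The dim probe set that had risen with lactation was lower in the AIL than in QSi5, at -0.55 (SE 0.10, adjusted p = 0.00027), and the mean of all 6 was 0.97 and 0.88.

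Among the laminin chains, Lamb2 was 6.37, 6.42, 6.65, 5.89 and 6.12 in AQ and 6.32, 6.26, 5.94, 6.78 and 6.24 in AC mice, against 5.31, 4.65 and 5.35 in QSi5 and 5.36, 5.66 and 5.41 in CBA/CaH. All AIL arrays lay above both strains, by 1.20 (SE 0.18, adjusted p = 6.72e-05) and 0.83 (SE 0.18, adjusted p = 0.00178). Lamc1 was 7.36, 7.61, 7.53, 6.73 and 7.11 in AQ and 7.52, 7.27, 7.54, 7.08 and 7.36 in AC mice, and overlapped with both strains through AQ array 4. It was higher by 0.49 (SE 0.15, adjusted p = 0.0175) and 0.68 (SE 0.15, adjusted p = 0.0023). Its second probe set was lower, at -0.29 (SE 0.11, adjusted p = 0.0425) and -0.54 (SE 0.11, adjusted p = 0.00102), the mean of both was not called (0.10 and 0.07), and AIL arrays 4 and 5 alone gave 0.25 (adjusted p = 0.211) against QSi5 and 0.44 against CBA/CaH. The QSi5 call was also lost with quantile normalization (0.31, adjusted p = 0.111), with cyclic loess (0.33, adjusted p = 0.106), with all 26 arrays in the fit (adjusted p = 0.16), without the atypical arrays (adjusted p = 0.0948) and without lactating QSi5 array 2 (0.46, adjusted p = 0.0729).

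Lama1 was called against CBA/CaH and not against QSi5. It was 7.96, 7.78, 7.76, 7.78 and 7.91 in AQ and 7.56, 7.87, 7.71, 7.70 and 8.54 in AC mice, against 6.58, 7.01 and 7.22 in CBA/CaH, with no overlap and a difference of 0.92 (SE 0.17, adjusted p = 0.000475). Against QSi5 its difference was 0.22 (SE 0.17, adjusted p = 0.329). Lamb3 was 7.20, 7.83, 7.86, 7.37 and 7.24 in AQ and 7.53, 7.03, 7.36, 7.15 and 7.53 in AC mice, against 6.74, 6.69 and 6.57 in QSi5 and 7.77, 6.85 and 7.44 in CBA/CaH. It was called against QSi5 and not against CBA/CaH, at 0.74 (SE 0.18, adjusted p = 0.00339) against QSi5 without overlap and 0.05 (SE 0.18, adjusted p = 0.84) against CBA/CaH. Lama2 was 7.17, 7.28, 7.31, 7.21 and 6.52 in AQ and 7.55, 7.22, 7.17, 7.08 and 7.32 in AC mice, against 6.50, 6.41 and 6.71 in CBA/CaH. It was higher than in CBA/CaH by 0.64 (SE 0.15, adjusted p = 0.0027), with AQ array 5 inside the CBA/CaH range. That call was lost with all 26 arrays in the fit (adjusted p = 0.0953) and with AIL arrays 4 and 5 only (0.49, adjusted p = 0.0534). Against QSi5 Lama2 was not called (0.31 (SE 0.15, adjusted p = 0.102)), but it was without AQ array 5 (0.38, adjusted p = 0.0126). Lama4 was higher by 0.36 (SE 0.14, adjusted p = 0.0498) than in CBA/CaH, with overlap. The Lama4 call was lost in 18 of 26 alternatives. Lamc3 was lower than in QSi5, at -0.37 (SE 0.11, adjusted p = 0.0129) without overlap, and not called without lactating QSi5 array 2 (-0.33, adjusted p = 0.0756). Lama5, Lama3 and Lamb1 were called against neither strain. Against QSi5, Lama3 moved from 0.40 to 0.65 (adjusted p = 0.0206) without lactating QSi5 array 1, and Lama5 from 0.23 to 0.39 (adjusted p = 0.0249) without array 3. Equal medians gave a call for Lama5 against both strains, at 0.34 and 0.34. The mean of all Lamb1 probe sets was higher than in both, by 0.49 and 0.50.

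Among the integrins, Itgb3 was 4.92, 5.05, 5.06, 5.32 and 4.91 in AQ and 4.73, 5.07, 4.63, 4.69 and 4.74 in AC mice, against 5.72, 5.87 and 5.53 in QSi5 and 5.45, 5.29 and 4.81 in CBA/CaH. It lay below all QSi5 arrays, at -0.80 (SE 0.13, adjusted p = 0.000219), and overlapped with CBA/CaH, at -0.27 (SE 0.13, adjusted p = 0.129). The mean of both Itgb3 probe sets gave -0.47 against QSi5. Itga10 was 4.67, 4.49, 4.15, 4.54 and 4.21 in AQ and 4.56, 4.29, 4.42, 4.47 and 4.42 in AC mice, against 4.91, 4.55 and 4.80 in QSi5 and 4.99, 4.72 and 5.05 in CBA/CaH. It was lower, at -0.33 (SE 0.12, adjusted p = 0.0401) and -0.50 (SE 0.12, adjusted p = 0.00416), the second without overlap, and the first was lost in 14 of 25 alternatives. The AIL means of Itga10, 4.41 (AQ) and 4.43 (AC), lay below the array medians and are not shown to be above background. Probe sets with a mean under 5 had median differences of -0.16 against QSi5 and -0.14 against CBA/CaH. Itga4 was lower than in QSi5, at -0.74 (SE 0.18, adjusted p = 0.00394), and at -0.36 (adjusted p = 0.0498) without lactating QSi5 array 2, the array with high B and plasma cell markers. Itgb4, Itga8 and Itgav were higher than in QSi5, by 0.65 (SE 0.20, adjusted p = 0.0187), 0.67 (SE 0.24, adjusted p = 0.0338) and 0.66 (SE 0.22, adjusted p = 0.0228), and Itgae was lower, at -0.29 (SE 0.09, adjusted p = 0.0239). Without lactating QSi5 array 2 none of these 4 was called, with Itgb4 at 0.59 (adjusted p = 0.084), Itga8 at 0.51 (0.188), Itgav at 0.28 (0.305) and Itgae at -0.22 (0.148). Without lactating QSi5 array 3, Itgav was higher by 1.02. The mean of all probe sets gave 2.02 for Itga8 and -0.39 for Itga4 against QSi5.

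Itgb8 did not differ by the test between the AIL and either strain at lactation. It was 3.91, 4.55, 3.88, 4.40 and 4.04 in AQ and 4.46, 4.003, 4.73, 5.09 and 4.60 in AC mice, inside the range of 3.88 to 5.22 of the parental lactation arrays. The differences were 0.11 (SE 0.23, adjusted p = 0.751) and -0.13 (SE 0.23, adjusted p = 0.698). The low level at lactation was thus seen in all 4 lactation groups, and no AIL array approached the pregnancy range of 8.22 to 9.34.

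For Itga8, Itgav and Lamb1 a dimmer probe set was higher in the AIL than in both parental strains by more than 1 log2 unit, whereas the brightest one differed by less. The second Itga8 probe set was 7.49, 7.50, 7.35, 7.70 and 7.73 in AQ and 7.19, 7.84, 6.91, 7.81 and 7.27 in AC mice, against 4.16, 4.09 and 4.07 in QSi5 and 4.49, 4.18 and 3.99 in CBA/CaH. The groups were far from overlapping, with differences of 3.37 (SE 0.16, adjusted p = 2.96e-10) and 3.26 (SE 0.16, adjusted p = 8.68e-10). The parental means of 4.11 and 4.22 lay below the array medians and are not shown to be above background, so these estimated differences may be too small. The same probe set stood between 3.68 and 4.91 on all pregnancy arrays, below all AIL arrays. A second Itgav probe set gave 2.04 (SE 0.37, adjusted p = 0.000397) and 1.90 (SE 0.37, adjusted p = 0.000769), without overlap. These estimates may likewise be too small, with parental means of 4.48 in QSi5 and 4.61 in CBA/CaH. A second probe set of Lamb1 gave 1.20 (SE 0.12, adjusted p = 9.89e-07) and 1.22 (SE 0.12, adjusted p = 8.66e-07), also without overlap. These probe sets were chosen for display after their values were seen.

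**Figure D4:**
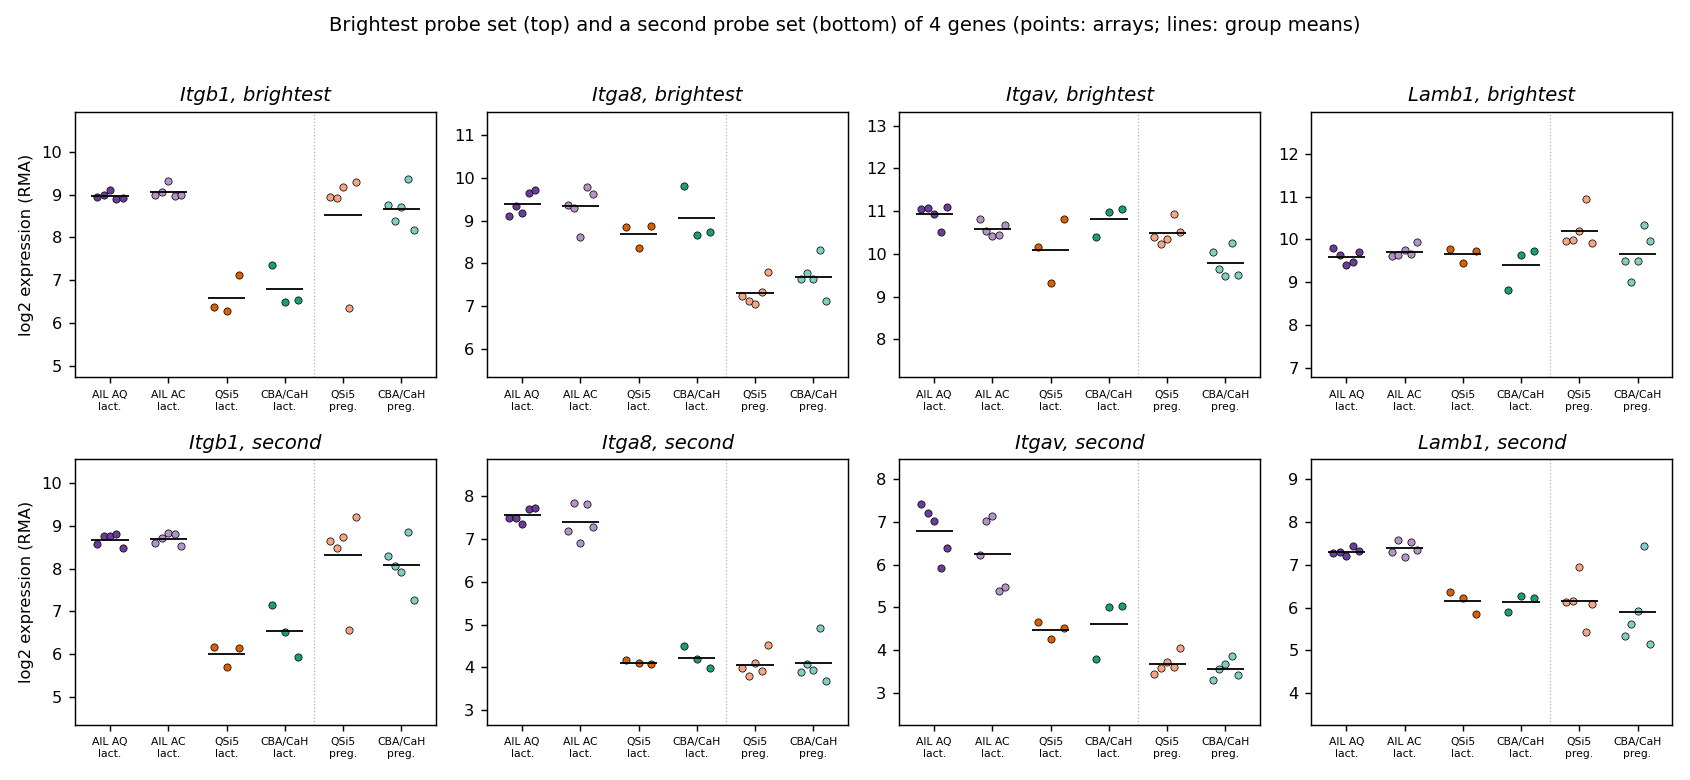
Log2 expression on each array for the brightest probe set (top) and a second probe set (bottom) of Itgb1, Itga8, Itgav and Lamb1, with group means as lines. The second Itga8 probe set lies at 6.91 or above in the AIL and at 4.91 or below on all other arrays, while the brightest one overlaps between the AIL and the parental lactation groups.

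The Gapdh value and fibroblast, macrophage and white adipocyte markers also separated the AIL arrays from the parental ones. Endothelial, luminal and myoepithelial and basal markers overlapped or split the AIL. Macrophage marker medians ran from -0.22 to 0.19 (AQ) and -0.20 to 0.24 (AC), against -0.92 to -0.46 (QSi5) and -0.99 to -0.58 (CBA/CaH). White adipocyte marker medians ran from -0.29 to 0.66 (AQ) and -0.50 to 0.16 (AC), against -1.15 to -0.53 (QSi5) and -0.97 to -0.75 (CBA/CaH). The Gapdh 3' minus 5' value ran from 0.54 to 0.71 in AQ and 0.57 to 0.80 in AC mice, against 1.48 to 1.62 in QSi5 and 1.12 to 2.02 in CBA/CaH. Fibroblast marker medians ran from -0.18 to 0.38 and -0.34 to 0.37 in AQ and AC mice, against -1.20 to -0.66 in QSi5 and -1.24 to -1.03 in CBA/CaH, and 8 of 10 were higher than in QSi5 and 7 of 10 higher than in CBA/CaH. Endothelial marker medians ran from 0.08 to 0.35 on AIL arrays 1 to 3 of both codes and from -0.69 to -0.37 on arrays 4 and 5, against -0.84 to -0.72 in QSi5 and -0.74 to -0.65 in CBA/CaH, so the AIL arrays fell into 2 sets by this measure. Beside the marker counts of this paragraph, 19.4% of all genes were called higher and 18.5% lower than in QSi5, and 18.0% and 16.2% than in CBA/CaH. White adipocyte markers were higher for 6 and 8 of 9, endothelial ones for 5 and 5 of 11, macrophage ones for 6 and 8 of 12 and myoepithelial and basal ones for 6 and 2 of 11. Luminal markers were higher for 4 and lower for 2 of 12 against QSi5, and higher for 4 and lower for 3 against CBA/CaH. B and plasma cell markers were lower for 5 of 10 against QSi5, and higher for 2 and lower for 2 against CBA/CaH, and T and NK cell markers were lower for 7 and 1 of 12. The part of these cell types and of RNA quality in the AIL differences was not tested. Whether the AIL arrays were processed together with the parental ones is not given in the sources used here, and such a set of arrays and the AIL genotype cannot be told apart.

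The partner genes gave mixed counts in the AIL. Of all genes, 19.4% were called higher and 18.5% lower than in QSi5, and 18.0% higher and 16.2% lower than in CBA/CaH. Of 21 cytoplasmic partners, 8 were higher and 1 lower than in QSi5, and 6 higher and 1 lower than in CBA/CaH. Lims1, the adaptor that joins the integrin-linked kinase and parvin, was higher by 0.85 and 0.93 (SE 0.17), and Fermt2, a kindlin that activates integrins, by 0.77 and 0.67 (SE 0.15). Of 14 other basement membrane genes, 7 were higher and 3 lower than in QSi5, and 4 higher and 1 lower than in CBA/CaH, with Nid1 at 1.40 and 1.09 (SE 0.20). Of the 4 hemidesmosome partners, Dst, a linker to keratin, was higher by 1.24 and 0.49 (SE 0.19) and Cd151 was lower, at -0.57 and -0.66 (SE 0.09). Of 7 other laminin receptors, 1 was higher and 1 lower than in QSi5, and 1 higher and 2 lower than in CBA/CaH. Of 18 other ligands, 5 were higher and 1 lower than in QSi5, and 5 higher and 0 lower than in CBA/CaH, with Npnt at 1.37 and 1.40 (SE 0.32). The lists' median differences lay between 0.09 and 0.36 against QSi5 and between 0.10 and 0.25 against CBA/CaH.

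Last, AIL mice coded AQ were compared with those coded AC. No member was called, and 0% of all genes were. An unadjusted p under 0.05 was reached by 3 members (limma): Itga2 (0.36, SE 0.11, unadjusted p = 0.00572), Itga4 (0.39, SE 0.17, unadjusted p = 0.0373) and Itgb3 (0.28, SE 0.13, unadjusted p = 0.0418). Itga2 was 4.94, 4.90, 5.01, 4.74 and 4.75 in AQ mice, against 4.56, 4.72, 4.49, 4.53 and 4.26 in AC mice, and Itga4 was 5.57, 5.68, 5.58, 5.80 and 5.91 in AQ mice, against 5.38, 5.47, 5.27, 5.19 and 5.29 in AC mice. Neither overlapped between the codes, and both had an adjusted p of 1. The shares of all genes without overlap, or with an unadjusted p under 0.05, are not given here for this comparison. These values are therefore a description of single members.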

How the data were processed

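RNA of the inguinal mammary gland was measured on 26 Affymetrix arrays, 1 per mouse, per the labels. The authors summarised each probe set with RMA, per the submitters' processing notes, and deposited the result on a log2 scale. The software version, the chip definition and whether all arrays were processed together are not given in the sources used here. The values were used as deposited.

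Of 45101 probe sets, 64 controls were left out and 45037 tested. An annotation table of the array gave 34945 of them 1 symbol, 932 several and 9160 none. In R 4.3.3, limma 3.58.1 (lmFit and eBayes, with a mean for each group) was run in 2 fits, 1 on the 16 parental arrays (stage, strain, interaction) and 1 on the 16 lactation arrays (AIL). Adjusted p-values are those of Benjamini and Hochberg across the 45037 probe sets, and a difference was called at an adjusted p under 0.05. The scripts were tested on simulated data.

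The members, gene lists, tests and the rule for named genes were chosen with earlier results of these data known. Members given by their arrays were those called with a difference of at least 1 log2 unit between stages, those called in another comparison and a fixed set, 24 in all. The other 10 are given by counts, ranges or differences. From each list of partner genes, up to 4 called genes with the largest differences and up to 2 not called were eligible, and exceptions are marked. An array was taken as atypical where the Gapdh 3' minus 5' value or the median of the skeletal muscle, brown adipocyte or B and plasma cell markers lay over 1 log2 unit above the median of the other arrays of its group. Alternatives were a filter on mean level (5), an intensity trend, 3 further array scalings (quantile, equal medians, cyclic loess), all 26 arrays or only the groups compared in 1 fit, array weights, the mean of all probe sets of a gene, a block on replicate number, leaving out the 7 atypical arrays, subsets of the AIL arrays and each array left out in turn. Promoters came from RefSeq, read with Python 3.11.15.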

Additional observations from a re-analysis of the deposited data

Results flagged for a closer look

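Over the 24 members given by their arrays, the groups of 5 arrays were searched for an array far from the other 4, by the gap to its nearest neighbour relative to the group's range (Dixon's criterion). Of 96 groups, 13 held such an array, and chance alone flags about 1 in 20.

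In 5 of the 13, the array was pregnant QSi5 array 4, the one with the Gapdh 3' minus 5' value of 6.50. It was low for Itgb1 (6.34), Lamb2 (6.58) and Lamc1 (7.84), and high for Lamb1 (10.9) and Lamc3 (5.69). Without it, the stage differences in QSi5 were -2.49 for Itgb1, -2.09 for Lamb2, -2.56 for Lamc1, -0.36 for Lamb1 and 0.58 for Lamc3. The part of RNA quality in these values was not tested.

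In pregnant CBA/CaH, array 4 was high for Lama2 (8.81) and Lama3 (7.07), and array 5 was low for Itgb8 (8.22). In the AIL, AQ array 3 was high for Itga3 (7.12), AQ array 4 low for Itga6 (9.78), AQ array 5 low for Lama2 (6.52), AC array 3 high for Itgb1 (9.31) and AC array 2 high for Itgb3 (5.07).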

How the results depend on the processing

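Itgb8, Lamc1, Lamb3, Lamb2, Itgb1, Itga8 and Lama5 kept their direction and call in both stage comparisons, and Itgb1 and Lamb2 in both AIL comparisons, under all alternatives run. Over the named members, 51 comparisons were called, and 25 of them were called in every alternative; of the alternatives of the 51, 945 kept the call, 150 lost it and 2 reversed the direction. The counts of members moved as follows. For stage in QSi5 the 8 higher became 5 with quantile normalization, 4 with equal medians, 5 with cyclic loess and 5 to 8 with 1 array left out (5 without lactating QSi5 array 2), and the 10 lower became 16 with equal medians and 9 to 12 with 1 array left out. For strain at pregnancy the 0 higher became 1 with all 26 arrays in the fit and 1 with array weights, and for the interaction the 0 lower became 1 with all 26 arrays. For AIL against CBA/CaH the 1 lower became 0 with the filter, 4 with quantile normalization, 2 with only the groups compared, 2 with the mean of probe sets, 3 without the atypical arrays and 1 to 3 with 1 array left out (3 without lactating CBA/CaH array 3, 2 without AC array 1 or AQ array 3), and the 6 higher became 3 with all 26 arrays and 5 to 8 with 1 array left out. For AIL against QSi5 the 5 lower became 3 with the filter, 2 with equal medians, 3 with cyclic loess, 2 with all 26 arrays, 2 without the atypical arrays, 3 with AIL arrays 1 to 3 only, 2 with AIL arrays 4 and 5 only and 3 to 6 with 1 array left out (3 without lactating QSi5 array 2). Its 7 higher became 4 with quantile normalization, 4 with cyclic loess, 3 without the atypical arrays, 4 with AIL arrays 4 and 5 only and 3 to 8 with 1 array left out (3 without lactating QSi5 array 2). Among differences called as reported or under the alternative, directions turned for Itgae in QSi5 between stages with cyclic loess (-0.0052, adjusted p = 0.982), and with the mean of all probe sets for Itgav (0.36, adjusted p = 0.0111) and Lamc3 (-0.036, adjusted p = 0.885) in the same comparison. Differences not called in either setting also changed sign, for 7 named members between stages in QSi5 (20 alternatives, 11 of them array scalings; Itga1, Itga2, Itga6, Itgav, Itgb3, Lama1 and Lamb1), 5 in CBA/CaH (12, 7 of them scalings; Itga2, Itga3, Itga6, Itgae and Lamb1), 7 in the AIL against QSi5 and 10 against CBA/CaH. A call lost without several arrays can come from fewer arrays alone, and no other cause was tested. Same-numbered arrays of AQ and AC deviated together in 4 of 5 pairs (correlations of 0.14 to 0.32, and 0.0074 for array 2), and 6 of these 10 arrays correlated best with their own number, a hint from the data and not the design. Between the other groups correlations ran from -0.43 to 0.12. The numbers were not taken to pair the samples, since in no comparison was every pair over 0.1. With the replicate block, 3 members were lower in the AIL than in QSi5 against 5 without it, and no other count of members moved by over 1.5 times. For the interaction, a fit of only the groups compared is the fit reported. Probe sets with a mean under 5 had a median stage difference of 0.32 in QSi5 and 0.29 in CBA/CaH, against -0.20 and -0.16 for brighter ones, and 5 members are that dim, so small rises of dim probe sets lie near the shift of all dim probe sets.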
